A study of Coryphaena hippurus with 21 samples.

Results

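MicroRNA (miRNA) counts of whole mahi-mahi (Coryphaena hippurus) larvae exposed to slick oil at a nominal 1% were compared with those of larvae exposed to source oil at a nominal 0.25%, the middle dose of each oil. Embryos of both groups developed from fertilization to 48 hours post fertilization in seawater holding a dilution of a high-energy water-accommodated fraction, which is oil blended into seawater, made from oil of the Deepwater Horizon spill. Slick oil was skimmed from the sea after weathering there, whereas source oil came from the well itself. The labels title the second group mass, read here as source oil, the only other oil that the series describes. Each group had 3 libraries, 6 of the 21 in the series, named M4, M5 and M6 for slick oil and M1, M3 and M5 for source oil after the count columns. Values below are given in that order of libraries. RNA came from pooled samples, and whether the 3 libraries of an oil stem from separate beakers is not stated, so p-values measure the spread between these libraries, which may be technical. The nominal concentrations differ between the oils, so the kind of oil and its dilution cannot be told apart, and without control libraries a difference does not show which oil moved a miRNA.

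The names compared were those listed in both count tables with a count above 0 in all 6 libraries. These were 109 of the 136 names listed in both tables and of the 329 names in the whole series. There were 191 names listed for slick oil and 189 for source oil. A family total was also formed by dropping the species prefix, the letter and the arm from each name, and 80 family totals were above 0 in all 6 libraries.

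MiRNAs are short RNAs cut from hairpin precursors, and they guide Argonaute proteins to messenger RNAs mainly through a seed near their 5′ end. MiRNAs with the same seed can bind the same messengers, and several miRNAs are often cut from a single clustered transcript. In vertebrate embryos some mark tissues, such as miR-206 and miR-1 in muscle, miR-9 and miR-124 in the nervous system and miR-126 in endothelium.

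The names carry the prefixes of 27 other species, among them ola (medaka) and ssa (salmon), and none belongs to mahi-mahi. A read can match several such names when their sequences are nearly the same, so a name need not stand for 1 miRNA. Among the 109 names 7 shared exactly equal counts with another, leaving 105 distinct patterns, and fru-miR-24-5p and mdo-miR-24-3p have equal counts although their names give opposite arms. The arm in a name was therefore not relied on. A further 27 names listed in both tables held a 0 in at least 1 library, and 25 of these reached 100 counts in another. The first column of each table, slick M4 and source M1, held no 0. The libraries held 6230239 to 7636400 counts with slick oil and 3641165 to 7198086 with source oil, of which the 109 names took 71.9 to 85.4% and 78.2 to 85.7%. A principal component analysis of all 21 libraries used 99 names, and its first component held 50.8% of the variance. The 3 slick libraries lay at -3.49 to -2.58 on it, beside the controls at -2.95 to -2.06, and the 3 source libraries at 5.06 to 7.5, beside the higher source dose at 5.87 to 10.1 and library L3 of the lower one at 7.16. Libraries L1 and L2 of that lower source dose lay at -3.19 and -2.93, on the side of the controls and slick oil. The libraries of the lower and higher slick doses lay at -5.15 to -3.95. All slick libraries and controls thus lay below 0, and of the source libraries only L1 and L2 of the lower dose did. What sets the libraries above 0 apart was not tested, and in this comparison that split and the oil cannot be told apart.

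Of the 109 names, 39 (35.8%) were called at an adjusted p under 0.05, 24 higher in slick oil (22.0%) and 15 lower (13.8%). Fold changes are log2 of slick oil over source oil, from edgeR's quasi-likelihood test with Benjamini-Hochberg adjustment over all 109 names, each with an approximate standard error (SE). The names furthest above source oil were ola-let-7g, sha-miR-92a, tgu-miR-126-5p and ccr-miR-454b, each more than 4-fold higher. Those furthest below were aca-miR-34b-5p, ola-miR-218b and the miR-19 names. Levels are CPM, counts scaled to library size with edgeR's TMM factors, with the SD over the 3 libraries of a group. The calls ran from sma-miR-124b-5p at 1.81 CPM in slick oil and 5.15 CPM in source oil to ssa-miR-206-5p, the most abundant name. The groups did not overlap for 50 names (45.9%), 34 of them called (31.2% of all names), and 47 names (43.1%) had an unadjusted p under 0.05. Counting each set of equal counts once left 37 calls, 23 higher and 14 lower.

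**Figure D1:**
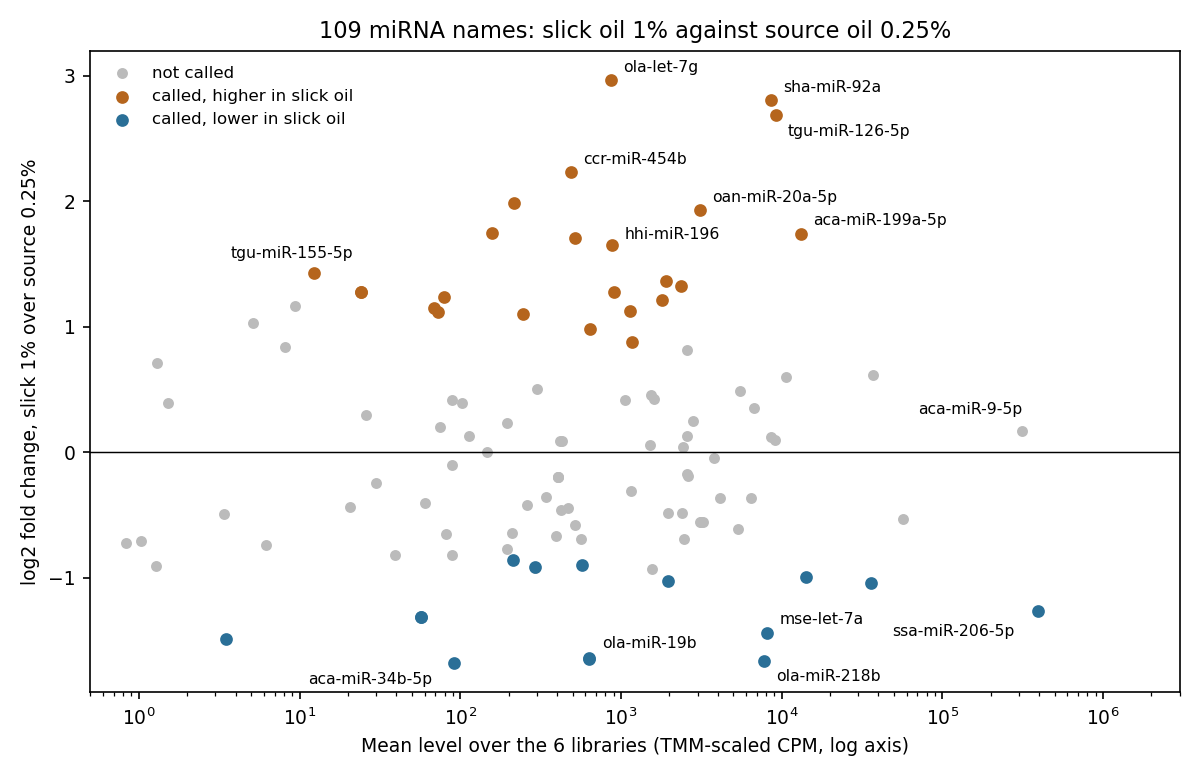
Each point is a miRNA name, with its mean level over the 6 libraries on a log axis and its log2 fold change of slick oil 1% over source oil 0.25%. The 24 names called higher lie above the line at 0 and the 15 called lower lie below it, while the abundant aca-miR-9-5p, at 0.17, was not called.

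The number of calls rested on single libraries. Without source library M3 it was 16 (13 higher and 3 lower), without source M1 22 (16 and 6) and without slick M4 23 (15 and 8). With total counts in place of TMM factors 21 names were called, 18 higher and 3 lower, and the median fold change over all names was 0.19, against -0.045 with TMM, a shift of 0.23. The lower calls left under that scaling were ola-miR-218b and both miR-19 names. All 39 names kept their direction under each of the 15 other settings that tested them. The names ccr-miR-454b, hsa-miR-130b-5p, ola-miR-135b, ola-miR-218b, ola-miR-462, tgu-miR-126-5p and tgu-miR-196 lost their call in 1 setting, the fit over all names listed in both tables. The 8 names called under every setting that tested them were ola-let-7g, sha-miR-92a, oan-miR-20a-5p, ipu-miR-130c, ola-miR-130c, hhi-miR-196 and the miR-19 names ola-miR-19b and ssa-miR-19c-4-5p. Of the 3 source libraries, M5 lay nearest to the slick mean for 22 of the 39 names, M1 for 10 and M3 for 7.

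The miR-17-92 clusters code for miRNAs of several seeds that act in cell proliferation and heart and vessel development. Their names split in this comparison. The name sha-miR-92a had 13707, 16915 and 14367 CPM in slick oil, against 1349, 1674 and 3408 CPM in source oil. Every slick library lay above every source library, and source M5 was the highest of its group (log2 fold change 2.81 ± 0.38 SE, adjusted p = 0.000368). The name oan-miR-20a-5p had 5803, 3122 and 5815 CPM in slick oil, against 821, 1364 and 1676 CPM in source oil. It was higher in slick oil as well (1.93 ± 0.36, adjusted p = 0.00236), with slick M5 the lowest of its group and the groups apart.

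The miR-19 names went the other way. The name ola-miR-19b had 279, 265 and 384 CPM in slick oil, against 736, 943 and 1215 CPM in source oil (-1.64 ± 0.30, adjusted p = 0.00226). All slick libraries lay below all source libraries. The name ssa-miR-19c-4-5p had almost the same counts and is not a separate measurement. A further name, ola-miR-106a, was higher in slick oil at 1777, 1075 and 1699 CPM, against 622, 877 and 973 CPM in source oil (0.88 ± 0.31, adjusted p = 0.04), a call lost in 6 of the 15 other settings. Other names of the clusters were not called: ola-miR-17 stood at 0.13 ± 0.29, ssa-miR-18a-5p at 0.35 ± 0.30, hsa-miR-25-5p at 0.12 ± 0.29 and dre-miR-93 at -0.93 ± 0.36 (adjusted p = 0.0634). In all, 3 of 10 names were higher, 2 lower with almost the same counts and 5 not called, against 22.0% higher and 13.8% lower over all names, with a median of 0.12. The family totals of miR-92 (2.88 ± 0.42) and miR-20 (2.0 ± 0.39) were higher and that of miR-19 (-1.56 ± 0.31) lower. The miR-92 and miR-20 totals each hold a single name, given above, and the miR-19 total adds the 2 names with almost the same counts.

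MiR-130, miR-301 and miR-454 share a seed in vertebrates through their 3p arms. The miR-301 names and hsa-miR-130b-5p are labelled 5p, and the other names here give no arm. Whether their counts come from the arm with the shared seed was not tested. All 6 of their names were higher in slick oil, with a median of 1.56, against -0.045 over all names, of which 22.0% were called higher. The name ccr-miR-454b had 886, 610 and 912 CPM in slick oil, against 95.6, 110 and 306 CPM in source oil (2.23 ± 0.43, adjusted p = 0.0026). Every slick library lay above every source library, and source M5 stood above the other source libraries. Its fold change was 2.96 without source M5 and 1.34 where repeated lines of a name were added up, and the call was lost over all names of both tables (adjusted p = 0.0612). The name ipu-miR-130c had 334, 495 and 200 CPM in slick oil, against 79.2, 76.3 and 104 CPM in source oil (1.99 ± 0.38, adjusted p = 0.00244). The name ola-miR-130c, which has the same counts as ipu-miR-130c in source M1 and M3, was at 1.75 ± 0.37 (adjusted p = 0.00462). In both, slick M5 was the highest and slick M6 the lowest library of its group, and the groups did not overlap.

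The more abundant hsa-miR-130b-5p had 1671, 4386 and 2137 CPM in slick oil, against 1198, 817 and 1160 CPM in source oil (1.37 ± 0.37, adjusted p = 0.0147), again with slick M5 highest. For miR-301, ssa-miR-301a-5p had 1554, 1941 and 1194 CPM in slick oil, against 584, 681 and 881 CPM in source oil (1.13 ± 0.30, adjusted p = 0.013), a call lost in 3 of the 15 other settings. The name dre-miR-301c-5p stood at 0.98 ± 0.32 (adjusted p = 0.0338), a call lost in 6 of the 15 other settings. The 3 family totals were higher, miR-454 by 2.31 ± 0.47, miR-130 by 1.53 ± 0.39 and miR-301 by 1.15 ± 0.31 on the log2 scale. They hold the counts of the names above, miR-454 those of ccr-miR-454b alone, and are not separate measurements.

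The let-7 family times developmental transitions in animals and rises in late embryos. It was the only family of the 21 with at least 2 names compared that held names called in both directions. The name ola-let-7g had 1584, 1670 and 1329 CPM in slick oil, against 143, 249 and 194 CPM in source oil (2.97 ± 0.31, adjusted p = 4.25e-05). This was the largest fold change of the comparison, and the slick libraries lay far above the source libraries. With repeated lines added up it was 4.08. The name ola-let-7e, rare at 5.84, 8.52 and 6.24 CPM in slick oil and 4.2, 2.99 and 2.99 CPM in source oil, stood at 1.03 ± 0.39 and missed the threshold (adjusted p = 0.0529). It was called in 3 of the 15 other settings.

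The other 2 let-7 names were lower in slick oil. The name mse-let-7a had 4345, 4735 and 3976 CPM in slick oil, against 14383, 16354 and 4597 CPM in source oil (-1.44 ± 0.41, adjusted p = 0.0175). Source M5 lay within the range of the slick libraries and the other source libraries far above it, so the groups overlapped. The name ssc-let-7i had 354, 496 and 354 CPM in slick oil, against 896, 769 and 576 CPM in source oil (-0.90 ± 0.29, adjusted p = 0.0338), with groups that did not overlap. The calls of mse-let-7a and ssc-let-7i were lost in 5 and 7 of the 15 other settings, and mse-let-7a stood at -2.36 with repeated lines added up.

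The let-7 family total was 13667, 11118 and 9346 CPM in slick oil, against 49649, 30908 and 4811 CPM in source oil, and it was not called (-1.32 ± 0.69, adjusted p = 0.198). Source M5 lay below all slick libraries and the other source libraries above them. This total adds names that may hold the same reads, since tca-let-7-5p has 41051 counts in source M1 like mse-let-7a and 0 in source M5. It also adds ipu-let-7d, with 19645 counts in slick M4, 72924 in source M1 and 0 in the other libraries. The higher level of ola-let-7g in slick oil was not seen in the family total, which depends on which names hold the reads.

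**Figure D2:**
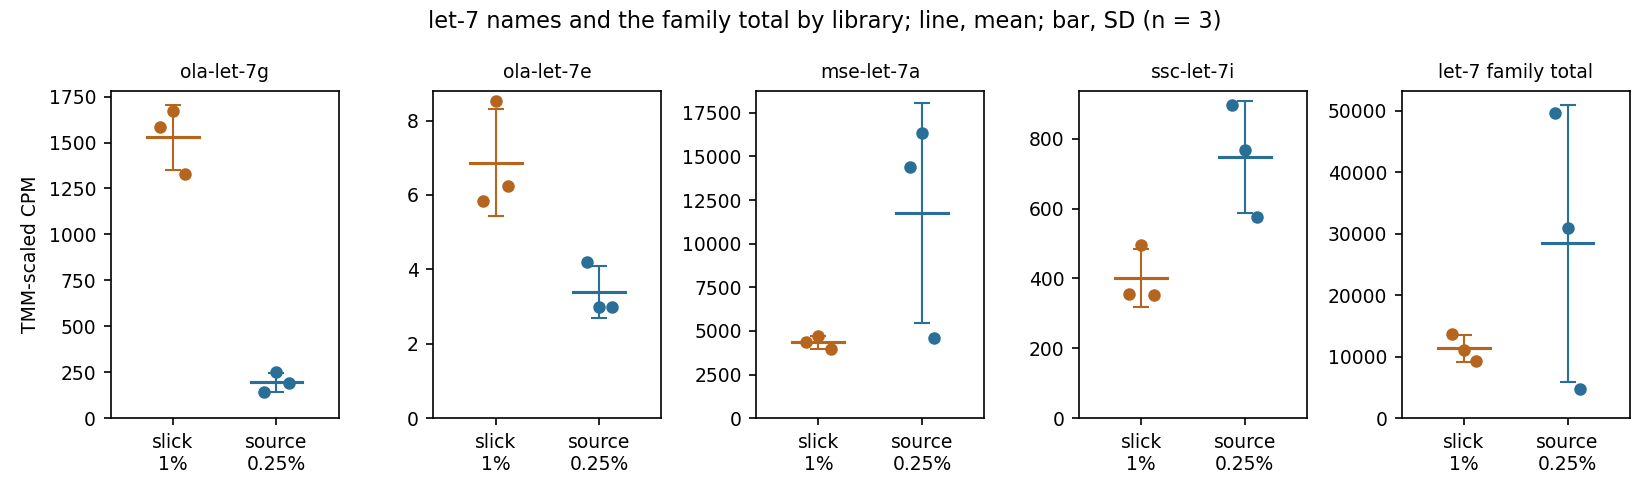
TMM-scaled CPM of the 4 let-7 names and of the family total in each library of slick oil 1% and source oil 0.25%, with the mean and SD of 3 libraries. The name ola-let-7g averaged 1527 CPM in slick oil and 195 CPM in source oil, while the total was spread from 4811 to 49649 CPM over the source libraries.

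MiR-126 lies in a gene active in endothelium and acts in vessel integrity. The name tgu-miR-126-5p had 13408, 6475 and 27737 CPM in slick oil, against 2250, 2465 and 2667 CPM in source oil. The slick libraries were all above the source libraries and differed widely among themselves, with M6 highest and M5 lowest (2.69 ± 0.46, adjusted p = 0.00166), and the fold change was 2.01 without slick M6. Of the other names linked to vessels, efu-miR-27b was higher, with 2654, 2824 and 2112 CPM in slick oil, against 790, 814 and 1672 CPM in source oil (1.21 ± 0.34, adjusted p = 0.0162). The calls of tgu-miR-126-5p and efu-miR-27b were lost in 1 and 4 of the 15 other settings. In bulk RNA, fewer cells of a type and less RNA per cell cannot be told apart.

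The names oar-miR-23b (0.090 ± 0.36) and mdo-miR-24-3p (-0.19 ± 0.28), made from the same clusters as miR-27, were not called, nor were ccr-miR-221 (-0.56 ± 0.29) and ssa-miR-222a-5p (0.42 ± 0.31). The smooth muscle miRNA oan-miR-145-5p stood at -0.65 ± 0.46. Of 12 names in the endothelial and smooth muscle list, 2 (16.7%) were higher, against 22.0% of all names, 0 lower and 10 not called. Their median was -0.052, against -0.045 over all names.

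**Figure D3:**
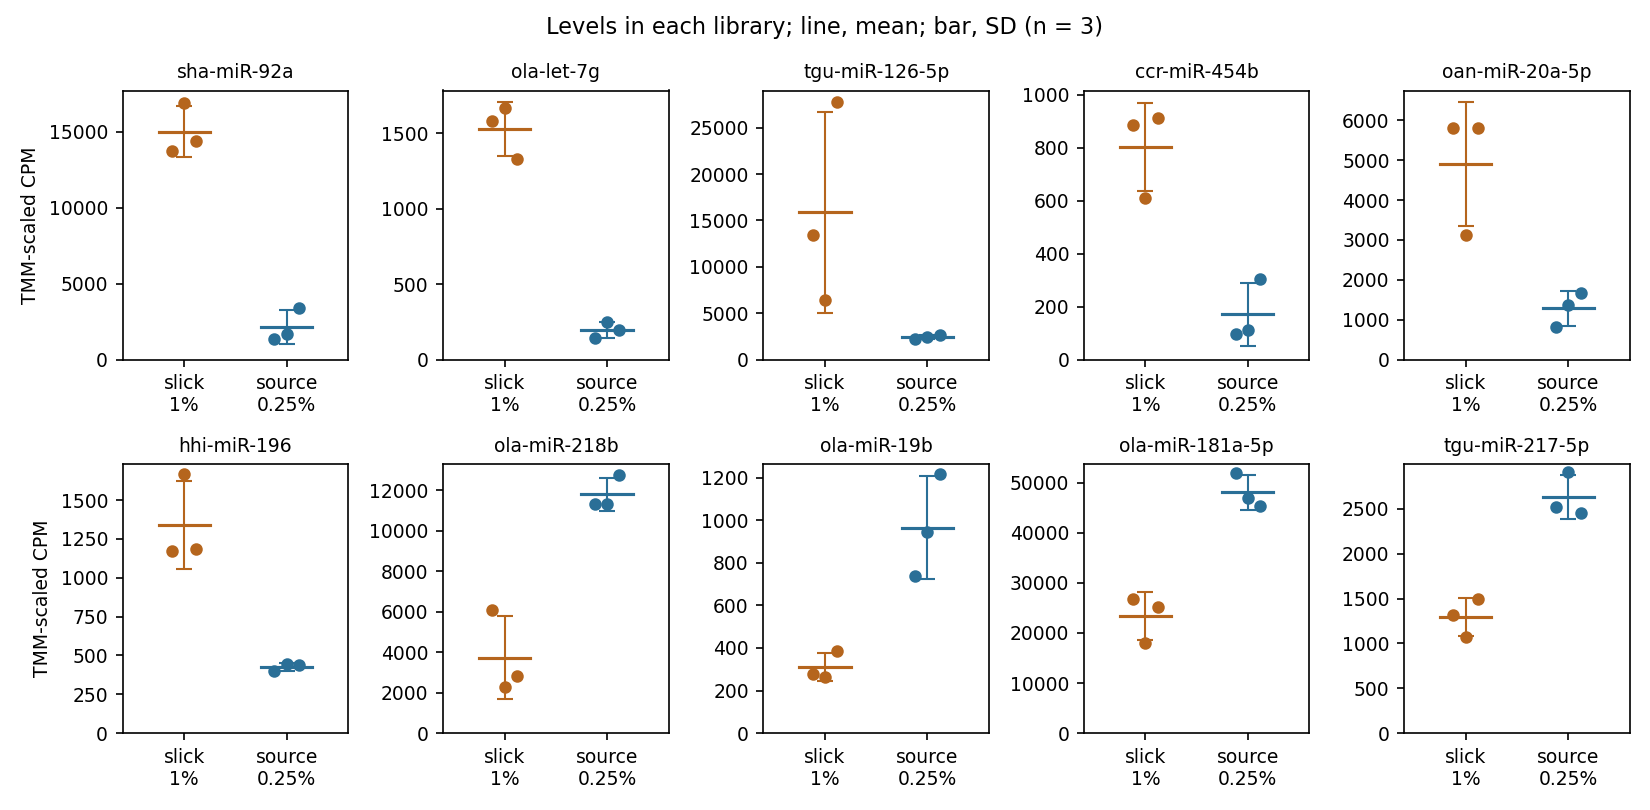
TMM-scaled CPM of 10 called names in each library of slick oil 1% and source oil 0.25%, with the mean and SD of 3 libraries. All 10 belong to the 34 called names whose groups did not overlap, so the oils lie apart in each panel by this choice. Groups did not overlap for 45.9% of all 109 names. The name tgu-miR-126-5p was spread from 6475 to 27737 CPM among the slick libraries.

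MiR-196 is encoded in the Hox clusters, which pattern the body axis, and targets Hox messengers. The name hhi-miR-196 had 1169, 1669 and 1188 CPM in slick oil, against 398, 446 and 440 CPM in source oil (1.65 ± 0.28, adjusted p = 0.00166). The name tgu-miR-196 had 3142, 4218 and 2725 CPM in slick oil, against 1529, 1566 and 930 CPM in source oil (1.33 ± 0.31, adjusted p = 0.00926). Both were highest in slick M5 and had groups that did not overlap. The other Hox cluster miRNA, miR-10, was close to 0 in fold change, with mdo-miR-10b-5p at 0.060 ± 0.28 and sha-miR-10b at 0.040 ± 0.27. Of the 4 names 2 were higher and 2 not called, against 22.0% higher over all names. Their median was 0.69, against -0.045 over all names.

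MiR-199 is made with miR-214 in mesenchyme and connective tissue. The name aca-miR-199a-5p had 31238, 10320 and 19452 CPM in slick oil, against 4754, 5554 and 7937 CPM in source oil (1.74 ± 0.40, adjusted p = 0.00765). Its groups did not overlap, and slick M5 was the lowest of its group. With repeated lines added up its fold change was 0.81 and the call was lost (adjusted p = 0.13), as it was over all names of both tables (adjusted p = 0.0874). The name ola-miR-214 had 60.5, 40.7 and 91.3 CPM in slick oil, against 19.6, 22.3 and 298 CPM in source oil, and was not called (-0.82 ± 0.81). Its source M5 value was the highest of the 6 libraries and the other source values the lowest. The other miR-214 name, oan-miR-214-5p, was at -0.67 ± 0.38 and not called. Of 3 names in the cartilage and connective tissue list 1 was higher and 2 were not called, against 22.0% higher over all names. The list median was -0.67.

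MiR-462 and miR-731 are neighbours in teleost genomes and respond to viral infection in fish. The name ola-miR-462 had 874, 307 and 1214 CPM in slick oil, against 269, 228 and 237 CPM in source oil (1.71 ± 0.42, adjusted p = 0.0104). Slick M5 lay only a little above the source libraries. The name ola-miR-731 had 393, 403 and 283 CPM in slick oil, against 662, 381 and 438 CPM in source oil (-0.46 ± 0.31), with overlapping groups and no call. The immune cell miRNA tgu-miR-155-5p was higher at 23, 13.9 and 17.3 CPM in slick oil, against 7.36, 6.18 and 6.53 CPM in source oil (1.43 ± 0.37, adjusted p = 0.013), a call lost without source M3. The leukocyte miRNA ola-miR-142 was lower, at 32.8, 31.5 and 33.8 CPM in slick oil, against 57.8, 84.5 and 101 CPM in source oil (-1.31 ± 0.35, adjusted p = 0.013). That call was lost with total counts and without source M3. The name tgu-miR-142-5p has equal counts, and the third miR-142 name, mmu-miR-142b, overlapped between groups (-0.43 ± 0.97). Of 6 names in the blood and immune cell list, 2 were higher, 2 lower with 1 pattern of counts and 2 not called, against 22.0% higher and 13.8% lower over all names, with a median of -0.44. No miR-144 or miR-451 name was among those compared.

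In the neural list 5 of 14 names (35.7%) were called, against 35.8% of all names, 2 higher, 3 lower and 9 not called, with a median of -0.13. The name ola-miR-218b, of a family made in motor neurons in vertebrates, had 6082, 2267 and 2849 CPM in slick oil, against 11317, 11322 and 12748 CPM in source oil (-1.66 ± 0.37, adjusted p = 0.00717). The source libraries were close together and all above the slick libraries. The neuronal dre-miR-124-4-5p had 246, 156 and 207 CPM in slick oil, against 323, 340 and 488 CPM in source oil (-0.92 ± 0.32, adjusted p = 0.04), a call lost in 8 of the 15 other settings. The name ola-miR-124-5p has equal counts in the source libraries, and at -0.92 ± 0.34 it missed the threshold (adjusted p = 0.0529). The rare sma-miR-124b-5p was at -1.49 ± 0.39 (adjusted p = 0.013), a call lost in 4 of them, among them DESeq2's test (adjusted p = 0.121) and total counts (adjusted p = 0.137).

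The brain miRNA ola-miR-135b was higher in slick oil, with 1640, 825 and 1363 CPM, against 479, 503 and 597 CPM in source oil (1.28 ± 0.31, adjusted p = 0.00969). The name ola-miR-135a was higher too (1.10 ± 0.35, adjusted p = 0.0332), a call lost in 6 of the 15 other settings, while sha-miR-135a, at -0.36 ± 0.32, was not called. The miR-135 total, at 2043, 1333 and 2068 CPM in slick oil and 881, 1000 and 1004 CPM in source oil, had groups that did not overlap and missed the threshold (0.92 ± 0.28, adjusted p = 0.0539).

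MiR-181 acts in lymphocyte development and in the visual system of fish. The name ola-miR-181a-5p had 26882, 17997 and 25227 CPM in slick oil, against 52039, 46898 and 45271 CPM in source oil (-1.04 ± 0.29, adjusted p = 0.0161). The name cfa-miR-181b had 9981, 8855 and 9750 CPM in slick oil, against 19626, 23228 and 13953 CPM in source oil (-0.99 ± 0.30, adjusted p = 0.022). In both, all slick libraries lay below all source libraries, and the calls were lost in 5 and 6 of the 15 other settings. The names ssa-miR-181b-5p (-0.69 ± 0.29) and hsa-miR-181b-2-3p (0.20 ± 0.37) were not called. The family total was not called either (-0.75 ± 0.38, adjusted p = 0.189), and it includes sha-miR-181a-5p, which has 148806 counts in source M1 beside 148528 for ola-miR-181a-5p, and 0 in source M5.

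The pancreas miRNA tgu-miR-217-5p had 1317, 1069 and 1494 CPM in slick oil, against 2518, 2907 and 2457 CPM in source oil (-1.02 ± 0.27, adjusted p = 0.0141), with groups apart and a call lost in 4 of the 15 other settings. The endocrine miRNA ipu-miR-375 stood at 0.81 ± 0.36 and was not called. Of 4 names in the liver, gut and pancreas list 1 was lower and 3 not called, against 13.8% lower over all names. The list median was 0.47, with ssa-miR-194b-5p at 1.17 ± 0.50 and ola-miR-194-5p at 0.13 ± 0.32. The name aca-miR-34b-5p, of a family induced by p53, had 37.6, 42.9 and 49.8 CPM in slick oil, against 168, 201 and 49.5 CPM in source oil (-1.68 ± 0.46, adjusted p = 0.0156). Source M5 lay within the slick range, so the groups overlapped, and the call was lost in 5 of the 15 other settings. The name ola-miR-100 was lower at 139, 170 and 142 CPM in slick oil, against 294, 230 and 295 CPM in source oil (-0.86 ± 0.30, adjusted p = 0.0416), a call lost in 7 of them.

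The remaining higher calls were less abundant names. The name ola-miR-101b-3p stood at 128, 72.2 and 133 CPM in slick oil, against 22.4, 44.7 and 74 CPM in source oil (1.24 ± 0.44, adjusted p = 0.0444), with groups that overlapped, slick M5 lying below source M5. The name ola-miR-101a-5p was at -0.42 ± 0.33 and not called. The name ssa-miR-22b-5p had 76.8, 129 and 77.4 CPM in slick oil, against 49.1, 50.0 and 28.3 CPM in source oil (1.15 ± 0.38, adjusted p = 0.0338). The miR-22 total lay the other way, at 12031, 18330 and 75 CPM in slick oil and 46159, 34426 and 26631 in source oil. This total was not called (-1.82 ± 1.24, adjusted p = 0.307). It adds pol-miR-22-5p, at 61825, 120765 and 0 counts in slick oil and 146758, 188223 and 109110 in source oil. It leaves out ssa-miR-22a-5p, listed for slick oil only, at 66406, 126408 and 102543 counts. The low total in slick M6 thus depends on which names hold the reads. The calls of ola-miR-101b-3p and ssa-miR-22b-5p were lost in 6 and 5 of the 15 other settings. MiR-29, miR-101, miR-148 and miR-152 target DNA methylation and chromatin genes. In their list 1 of 5 names was higher, against 22.0% of all names, and 4 were not called, with a median of -0.37. Names first found in zebrafish were also among the remaining higher calls. The name ccr-miR-722, whose counts equal those of ssa-miR-722-5p, stood at 1.28 ± 0.43 (adjusted p = 0.0379), and at 0.36 (adjusted p = 0.482) with repeated lines added up. The name dre-miR-737-5p, whose groups overlapped, stood at 1.12 ± 0.40 (adjusted p = 0.043). The calls of ccr-miR-722 and dre-miR-737-5p were each lost in 7 of the 15 other settings. Of 8 such names 4 were higher, with 3 patterns of counts and ola-miR-462 among them, against 22.0% of all names, and 4 were not called, with a median of 0.47. Among these, ola-miR-430a, of the family that clears maternal messengers in fish, stood at -0.49 ± 0.30. Neither of the 2 names of the miR-15, miR-16, miR-103 and miR-107 list was called, against 35.8% of all names. Of these, ssa-miR-15b-5p had only 1 to 13 counts per library.

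A pair of names dominated all libraries. The muscle name ssa-miR-206-5p took 14.8, 29.8 and 19.2% of all counts in slick oil, against 46.9, 39.4 and 22.9% in source oil. At 198269, 292618 and 203301 CPM in slick oil and 872489, 565358 and 227179 CPM in source oil it was called lower (-1.26 ± 0.43, adjusted p = 0.0381). Source M5 lay within the slick range, and the call was lost in 7 of the 15 other settings. Its family total was not called (-1.19 ± 0.50, adjusted p = 0.147). The neural name aca-miR-9-5p took 32.9, 26 and 27.9% of counts in slick oil, against 14.0, 23.0 and 29.4% in source oil, and in CPM it did not pass the test (0.17 ± 0.31, adjusted p = 0.674). Together the pair took 47.1 to 55.7% of the slick and 52.3 to 62.4% of the source libraries.

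Among the other abundant names, ola-miR-21, raised in many injured tissues, had 49849, 43296 and 45488 CPM in slick oil, against 74328, 64629 and 61564 CPM in source oil. Its groups did not overlap, but it missed the threshold (-0.53 ± 0.28, adjusted p = 0.146). The skin miRNA ipu-miR-203b (0.62 ± 0.32) and the sensory organ miRNA chi-miR-182 (0.60 ± 0.30) also had groups apart without a call. In 1 of the 15 other settings chi-miR-182 was called. The brain miRNA mdo-miR-128a-5p was at 0.10 ± 0.32. Of the other muscle names, ggo-miR-499a stood at 0.42 ± 0.28 and rno-miR-133b-5p at -0.31 ± 0.36. Thus 1 of 3 muscle and heart names was lower, against 13.8% of all names, and 2 were not called. No miR-1 name was compared: tgu-miR-1-2-5p had 331650, 0 and 575628 counts in slick oil, against 12078, 0 and 0 in source oil. No name of the epithelial list (4) or of the eye and sensory organ list (4) was called, against 35.8% of all names.

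**Figure D4:**
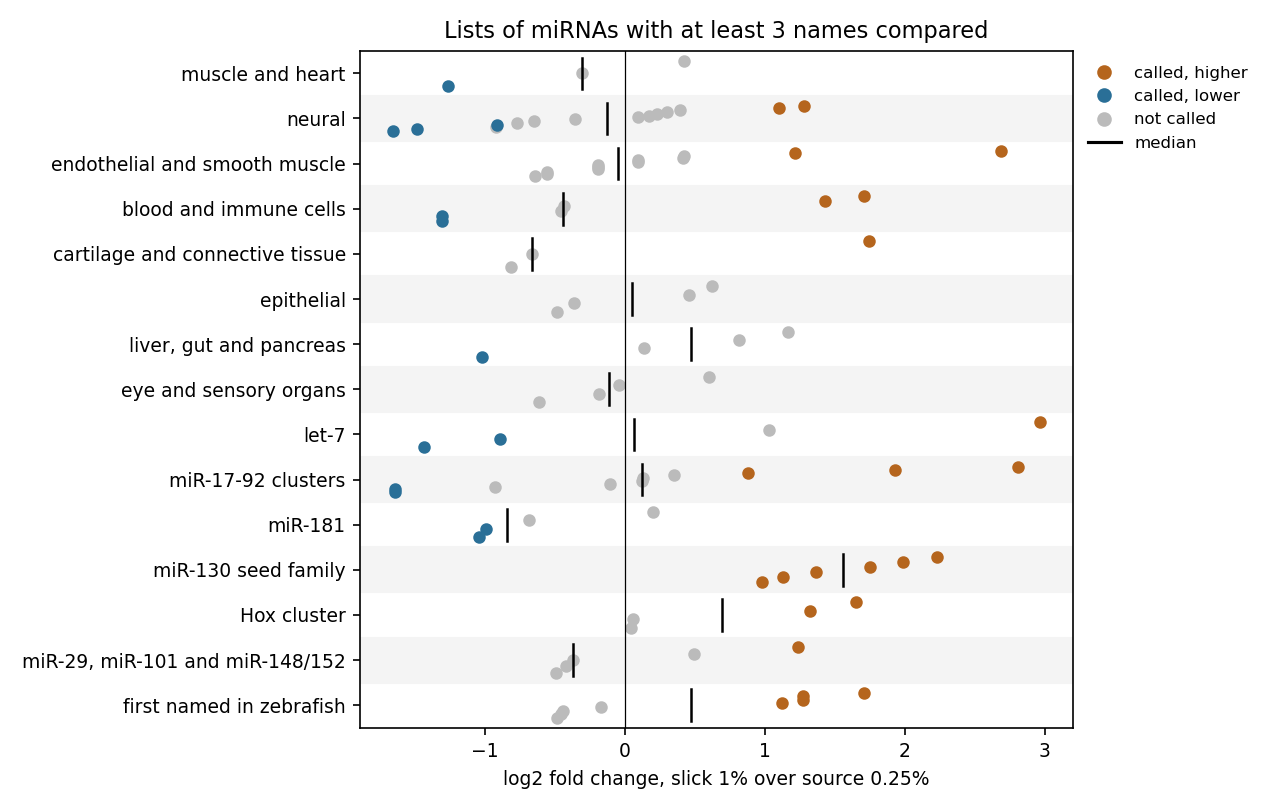
Log2 fold changes of slick oil 1% over source oil 0.25% for the names of each list with at least 3 names compared, with a line at the median of the list. The 6 names of the miR-130 seed family were all called higher, while the let-7, neural, blood and immune cell, and miR-17-92 lists held calls on both sides of 0.

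Ratios of names within a library do not depend on the scaling between libraries. For 12 pairs chosen after the values were seen, mostly neighbours in a cluster, the ratio of counts was taken in each library. An exact test of 3 against 3 libraries cannot go below 0.1, so the ratios are given as a description. The ratio of sha-miR-92a to ola-miR-19b was 49.0, 63.8 and 37.5 in slick oil, against 1.83, 1.77 and 2.80 in source oil. That of oan-miR-20a-5p to ola-miR-17 was 2.34, 1.41 and 1.72 in slick oil, against 0.421, 0.497 and 0.623 in source oil. Both names of each ratio come from the miR-17-92 clusters, and the oils were far apart in the first ratio. The ratio of ola-let-7g to mse-let-7a was 0.364, 0.353 and 0.334 in slick oil, against 0.00991, 0.0152 and 0.0422 in source oil.

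The ratio of efu-miR-27b to mdo-miR-24-3p was 5.68, 8.18 and 6.40 in slick oil, against 1.83, 1.99 and 3.60 in source oil. That of ola-miR-462 to ola-miR-731 was 2.22, 0.762 and 4.28 in slick oil, against 0.406, 0.599 and 0.540 in source oil. Most of the pairs hold a called name and all were chosen after the values were seen, so a count of them is a description only. The oils did not overlap for 45.9% of all names and in 7 of the 12 pairs. They overlapped in miR-27 over miR-23, miR-222 over miR-221, miR-199 over miR-214 and miR-206 over miR-9. They overlapped too in miR-301 over miR-130, the seed family whose names were all higher, at 0.930, 0.443 and 0.559 in slick oil and 0.488, 0.834 and 0.759 in source oil.

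**Figure D5:**
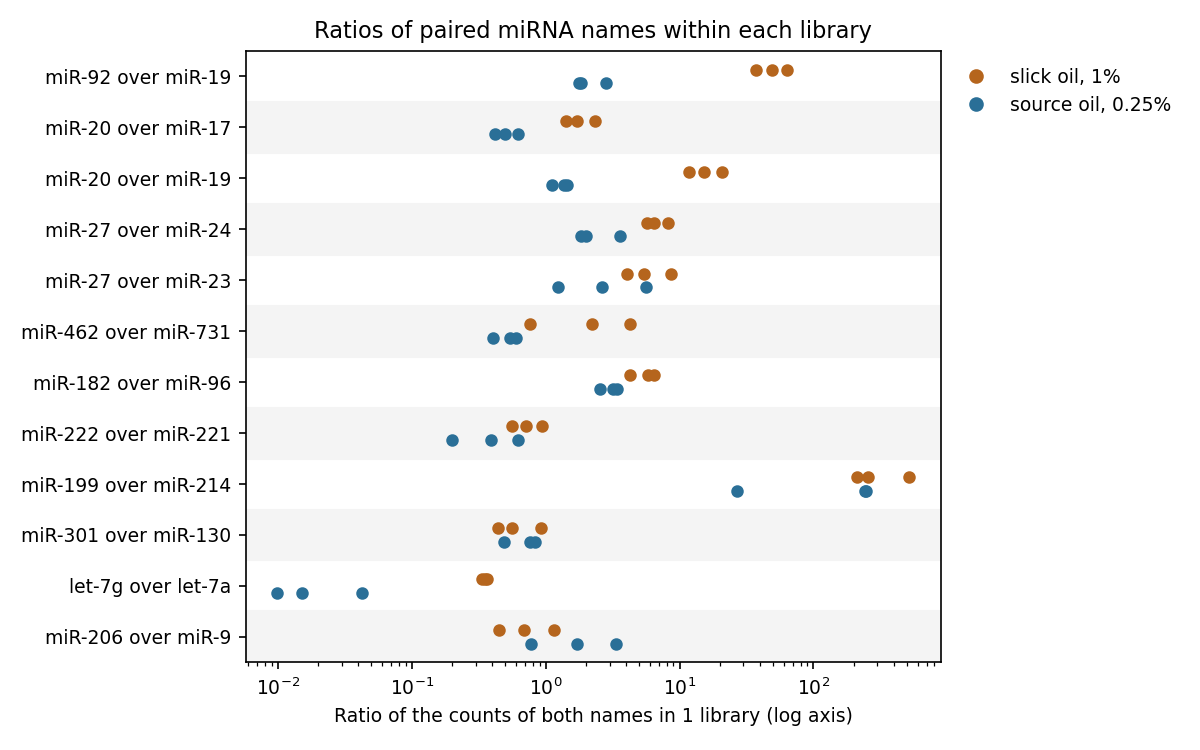
Ratio of the counts of both names of a pair in each library on a log axis, for slick oil 1% and source oil 0.25%. The ratio of miR-92 to miR-19 lay at 37.5 to 63.8 in the slick libraries and at 1.77 to 2.80 in the source libraries.

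Of the 80 family totals 14 (17.5%) were called, 11 higher in slick oil (13.8%) and 3 lower (3.75%), and in each of them the oils were apart, which held for 32 of the totals (40.0%). There were 25 totals (31.2%) with an unadjusted p under 0.05. Each of the 14 held a called name, among the 27 families with one. Besides those above, the totals of miR-126 (2.77 ± 0.53), miR-199 (1.81 ± 0.44), miR-462 (1.78 ± 0.46), miR-155 (1.5 ± 0.32), miR-196 (1.48 ± 0.31) and miR-27 (1.19 ± 0.33) were higher, and those of miR-218 (-1.60 ± 0.40) and miR-217 (-0.95 ± 0.27) lower. Only 5 of the 14 add several names, those of miR-19, miR-27, miR-130, miR-196 and miR-301. The others hold the counts of a single called name fitted again. No total was called without source M3, where 21 had an unadjusted p under 0.05 by edgeR's test, and 2 were called without source M1 or without slick M4. With total counts as scaling 9 were called, all higher. Each of the 14 lost its call in at least 1 other setting. The miR-92 total lost it in 1, miR-218 in 4, miR-217 in 5, and miR-27 and miR-301 in 7 each. Of the 21 families with at least 2 names compared, 16 had all their names on one side of 0 and 5 had names on both, namely let-7, miR-18, miR-101, miR-135 and miR-181.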

How the data were processed

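Counts are those the authors deposited, as whole-number read counts per mature miRNA name in 1 table per exposure, per the file headers. How reads were aligned and counted, and against which genome, is not given in the sources used here. The authors also deposited tables of log2 fold changes over control with p-values, for which the submitters' processing notes name DESeq2. The count columns carry numbers unlike the replicate numbers of the titles, so they were joined to groups. A name on more than 1 line (3 extra lines with slick oil, 12 with source oil) kept its highest count per library. Names above 0 in all 6 libraries, with no further filter, and family totals (names with equal counts once) were fitted separately with edgeR 4.0.16 under R 4.3.3 (TMM, estimateDisp, glmQLFit, glmQLFTest), adjusted by the Benjamini-Hochberg method over each set and called under 0.05. SEs are approximate, the size of the log2 fold change divided by the root of the F statistic. The fit was tested on counts simulated from its own means and dispersions, without zeros or reads shared between names. That test does not show that the calls in these libraries are right. DESeq2 1.42.0 was an alternative. The names given are up to 15 called in each direction with groups apart, the 10 most abundant, up to 12 family totals each way, every let-7 name, and called members of the lists. Others, with the ratio pairs, were chosen after their values were seen. The members and lists were chosen with earlier results of these data known.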

Additional observations from a re-analysis of the deposited data

Results flagged for a closer look

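Outside the 109 names compared, 4 names had counts above 0 in all 3 libraries of one oil and 0 in the 3 control libraries of the same table. With slick oil, xtr-miR-129 had at least 6666 counts per library and mne-miR-33 at least 22. With source oil, gga-miR-30e-5p had at least 9932 counts per library and dre-miR-139-5p at least 77. The names xtr-miR-129, mne-miR-33 and dre-miR-139-5p stand in only 1 of both tables, and gga-miR-30e-5p had 32566, 46434 and 0 counts in slick M4, M5 and M6, against 9932, 16669 and 12420 in source M1, M3 and M5. In slick M4 and M5, ipu-miR-129 had 6667 and 16558 counts, beside 6666 and 16559 for xtr-miR-129, and in slick M6 it had 0 beside 13098. Likewise ggo-miR-33 had 38 and 22 counts in slick M4 and M5, as mne-miR-33 did, and 0 beside 45 in slick M6. In source M1, M3 and M5 ggo-miR-33 had 21, 0 and 42 counts.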

How the results depend on the processing

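The number of names called (39) was 35 to 42 with DESeq2's size factors, TMM without the 2 most abundant names, all counts of the table as library size, filterByExpr, DESeq2's test, added lines and near-equal names counted once (the last chosen after the data were seen). It was 21 with total counts (3 lower), which moved the median by 0.23, and 14 of 127 over all names listed in both tables (7 higher, 7 lower). Leaving out 1 library gave 16 to 42 names, 13 to 27 higher and 3 to 18 lower. Family totals called (14) were 9 with total counts (0 lower), 23 with the arm kept (9 lower), 21 by DESeq2 (8 lower) and 0 to 20 without 1 library (0 to 13 higher, 0 to 7 lower). Uncalled names changed sign: aca-miR-9-5p to -0.75 with added lines and -0.064 without slick M4 (-0.064 to 0.33 without 1 library), chi-miR-182 to -0.11 with added lines, and mdo-miR-128a-5p to -0.03 over all names in both tables, -0.093 without slick M5 and -0.11 without source M3 (-0.11 to 0.35 without 1 library). The cause was not tested. No paired analysis was possible because the count columns do not carry the replicate numbers of the titles and share only 1 number. Names under 10 CPM (11, of which 1 was called) rest on few counts.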

Other observations

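The authors' deposited tables set each oil against the same 3 control libraries, so their values share those controls. In the authors' deposited table ola-let-7g stood at -0.13 in slick oil over control and at -3.16 in source oil over control (log2). In the authors' deposited table sha-miR-92a stood at 0.50 in slick oil and at -2.25 in source oil, and tgu-miR-126-5p at 0.86 and -1.57. In the authors' deposited table hhi-miR-196 stood at -0.27 in slick oil and -2.0 in source oil, and oan-miR-20a-5p at 0.31 and -1.60. In the authors' deposited table ola-miR-19b stood at -0.13 in slick oil and 1.43 in source oil, and ola-miR-181a-5p at 0.30 and 1.30. These 7 names were chosen after their values were seen. Of the 39 called names, all 39 have a value in the authors' deposited table for source oil, 31 with an adjusted p under 0.05 and 8 without, among them ssc-let-7i (0.55), ssa-miR-206-5p (0.208), ccr-miR-722 (0.208), ola-miR-106a (0.104) and ola-miR-218b (0.0665). In the authors' deposited table for slick oil 23 of the 39 have a value. Of these, 2 had an adjusted p under 0.05, sha-miR-92a (0.0371) and cfa-miR-181b (3.42e-06), and 21 did not. The 39 names were called with the same slick and source libraries, so these counts are a description only. They are not set against the share of all compared names under 0.05 in each deposited table. They therefore do not set the called names apart from the others. Uncalled names also had an adjusted p under 0.05 there, such as ssa-miR-18a-5p (2.23e-11) and dre-miR-93 (2.06e-09) with source oil. With slick oil ola-miR-21 (4.87e-05) and oar-miR-23b (3.42e-06) did. Other uncalled names did not, such as aca-miR-132-5p (0.276 with slick oil and 0.389 with source oil). Which oil moved the 39 called names was not tested.

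The slick and source libraries varied to a like extent within their groups. The median SD of log2 CPM over the 109 names was 0.334 in slick oil and 0.361 in source oil, and it was larger in slick oil for 55 names and in source oil for 54. Of the slick libraries, M5 lay nearest to the source mean for 17 of the 39 called names, M6 for 13 and M4 for 9.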
